A study of Rattus norvegicus with 12 samples.

Results

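The genes described here encode the troponins, the tropomyosins and other proteins of the sarcomere, the repeating contractile unit of striated muscle. Myosin chains and actins are left aside, except for Myh14, a non-muscle myosin heavy chain that is on the list. The genes were chosen by name, as a list of 40 gene symbols, and were looked up among the 17312 symbols of the data. Of the 40, 36 had a row and 34 of these a value over 0 somewhere. A filter on low values kept 33 of them and 10518 genes in all (at least 1 FPKM, fragments scaled by transcript length and library size, in at least 3 libraries). Ttn, Myom3, Neb and Cryab2 are not analysed here. Lmod2 and Myot are listed at 0 in all 12 libraries, and Myoz1 did not pass the filter, with 0.688 FPKM in its highest library.

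The data were 12 libraries of messenger RNA from cultured ventricular cardiomyocytes of newborn Wistar rats, in 4 groups of 3. The stretched Wnt5a siRNA group received a small interfering RNA against Wnt5a, a secreted Wnt ligand, and cell stretch. The stretched control group received a control siRNA and cell stretch, the unstretched Wnt5a siRNA group the siRNA against Wnt5a without stretch, and the unstretched control group the control siRNA without stretch. The strength and duration of the stretch, and whether the numbered libraries of a group came from separate cultures, are not given in the sources here. The p-values therefore measure only how far these libraries spread, and that spread may be technical.

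In the sarcomere, thin filaments of actin slide past thick filaments of myosin. Tropomyosin lies along the thin filament and covers the myosin binding sites until calcium binds troponin C, while troponin I inhibits the contact and troponin T holds the complex on tropomyosin. Thin filaments are anchored in the Z-disc by alpha-actinin, thick filaments are cross-linked in the M-band, and the heart changes from slow skeletal troponin I (Tnni1) to cardiac troponin I (Tnni3) around and after birth.

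Wnt5a itself was 6.22, 5.88 and 5.56 FPKM in stretched Wnt5a siRNA libraries, 6.52, 5.66 and 8.22 FPKM in stretched control libraries, 6.15, 4.6 and 6.81 FPKM in unstretched Wnt5a siRNA libraries and 12.3, 10.4 and 11.6 FPKM in unstretched control libraries. It was lower with the siRNA without stretch (log2 change -0.87 ± 0.14 (SE), limma adjusted p = 0.00142). With control siRNA, the stretched libraries were also all below the unstretched ones (means of 6.8 and 11.4 FPKM). The siRNA libraries with stretch overlapped their controls (-0.17 ± 0.14 (SE), limma adjusted p = 0.387), so the comparison of the siRNAs under stretch is between libraries labelled by their siRNA in which the Wnt5a transcript did not pass the test. Stretched control library 3 stood apart from the other two of its group: its SD of log2 differences from them was 0.393 and 0.426, against 0.205 to 0.288 between all other libraries of a group, and it was the lowest of its group for 25 of the 33 genes and the highest for 4. Summed FPKM per library ran from 575161 to 709021. The number of reads is unknown. The summed level of 9 cardiomyocyte markers, some of them sarcomere genes, was 12810 to 18930 FPKM in stretched Wnt5a siRNA, 19780 to 28270 in stretched control, 12780 to 16370 in unstretched Wnt5a siRNA and 18450 to 19490 in unstretched control libraries. That of 10 fibroblast markers was 9981 to 10540 FPKM in stretched Wnt5a siRNA, 5833 to 9714 in stretched control, 5996 to 6205 in unstretched Wnt5a siRNA and 4090 to 4605 in unstretched control libraries, with stretched control library 3 at 9714 and Col1a2 at 0 in every library. Of their 9 tested markers, 8 were called higher with stretch under Wnt5a siRNA, 7 with stretch under control siRNA and 6 with Wnt5a siRNA under stretch. Without stretch, 4 were called higher and 1 lower with Wnt5a siRNA. Among all genes, 8.44% were called higher with stretch under Wnt5a siRNA and 27.5% with stretch under control siRNA. With Wnt5a siRNA, 13.2% of all genes were called higher under stretch and 14.6% without stretch. Of 7 tested macrophage markers, all 7 were called higher with stretch under Wnt5a siRNA and 5 with stretch under control siRNA. Of 7 tested endothelial markers, 5 were called higher with stretch under Wnt5a siRNA and 1 with stretch under control siRNA. Of the 9 cardiomyocyte markers, 3 were called higher and 5 lower with stretch under control siRNA (26.8% of all genes were lower). With stretch under Wnt5a siRNA 0 were called higher and 4 lower (7.59% of all genes lower). Wnt5a siRNA without stretch gave 1 higher and 4 lower (13.9% of all genes lower), and under stretch 0 and 1. Actc1, the largest part of the cardiomyocyte sum, averaged 16845 FPKM in stretched control and 8339 FPKM in unstretched control libraries. The part of these cells in the results was not tested, and in bulk libraries fewer cells of a type and less RNA per cell cannot be told apart.

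With control siRNA, stretch lowered more of the sarcomere genes than it raised. Of the 33, 17 fell and 7 rose, and the other 9 did not pass the test (limma on log2(FPKM + 1), adjusted over all 10518 genes, threshold 0.05). Over all genes 54.3% were called, 27.5% higher and 26.8% lower, and the median log2 change was -0.36 for the 33 genes and 0.01 for all. All 6 tested genes of sarcomere assembly and turnover fell, as did 4 of 5 of the thick filament and M-band and all 3 of the thin filament ends, while 3 of 9 Z-disc genes rose and 1 fell. Scaling each library to equal summed FPKM (TPM) shifted the overall median to -0.19, with 4 of the 33 higher and 19 lower, and quantile normalization gave 4 and 21. Without stretched control library 3 there were 9 higher and 17 lower, and the median of the 33 was -0.16. Without stretched control library 1 there were 4 higher and 17 lower.

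With Wnt5a siRNA, stretch lowered 9 of the 33 genes, against 16% called among all genes, 8.44% higher and 7.59% lower. By limma 0 were called higher, and 0 of them had an unadjusted p under 0.05 in that direction. The median was -0.27 for the 33 genes and -0.01 for all. There were 3 lower without stretched Wnt5a siRNA library 1 or unstretched Wnt5a siRNA library 1, 5 without unstretched Wnt5a siRNA library 3, and 16 without stretched control library 3, which enters through the common spread.

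Wnt5a siRNA against control siRNA lowered 12 and raised 2 of the 33 under stretch, where 27.3% of all genes were called (13.2% higher, 14.2% lower) and the median was -0.32 for the 33 and 0.00 for all. Without stretch it lowered 11 and raised 3, where 28.5% of all genes were called (14.6% higher, 13.9% lower) and the median was -0.29 for the 33 and 0.00 for all. Under stretch the split was 4 higher and 11 lower with TPM scaling and 4 and 8 with quantile normalization, and it was 3 and 20 without stretched control library 3 and 1 and 7 without stretched control library 1 or stretched Wnt5a siRNA library 3. Without stretch it was 1 and 5 without unstretched control library 3, 2 and 7 without unstretched Wnt5a siRNA library 1, 3 and 6 without library 2 of that group, and 3 and 18 without stretched control library 3. By the test of the difference, the change with stretch with Wnt5a siRNA was unlike that with control siRNA for 9 of the 33 genes, 4 of them upward and 5 downward, against 23.8% of all genes (11.7% upward, 12.1% downward). That count is near the share of all genes, and the median difference was 0.04 for the 33 and 0.00 for all. The split was 7 upward and 4 downward with TPM scaling, 7 and 3 with quantile normalization, and 3 and 12 without stretched control library 3.

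The troponins did not move as one. Tnni3, cardiac troponin I, was 841, 973 and 847 FPKM in stretched Wnt5a siRNA and 932, 1409 and 676 FPKM in stretched control libraries. Tnni3 was 856, 764 and 994 FPKM in unstretched Wnt5a siRNA and 1514, 1738 and 1919 FPKM in unstretched control libraries. All 9 libraries with stretch, Wnt5a siRNA or both were below the 3 unstretched controls. The log2 change was -0.84 ± 0.20 (SE) for stretch with control siRNA (limma adjusted p = 0.00423) and -0.99 ± 0.20 for Wnt5a siRNA without stretch (limma adjusted p = 0.0048). With Wnt5a siRNA, stretch changed it by 0.03 ± 0.20 (95% interval -0.41 to 0.47, limma adjusted p = 0.943), and the difference between the changes with stretch was 0.87 ± 0.29 (limma adjusted p = 0.0471). That last call was lost when any 1 of 8 libraries was left out, with a limma adjusted p of up to 0.109, and with the replicate number as a block (limma adjusted p = 0.0515). It also ended with no filter (limma adjusted p = 0.0811) and with eBayes without a trend (limma adjusted p = 0.0599). Without stretched control library 3 the change with stretch was -0.58 (limma adjusted p = 0.00882).

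Tnni1, the slow skeletal troponin I of the fetal heart, was 925, 956 and 866 FPKM in stretched Wnt5a siRNA and 711, 848 and 819 FPKM in stretched control libraries. Tnni1 was 875, 787 and 938 FPKM in unstretched Wnt5a siRNA and 744, 800.4 and 832 FPKM in unstretched control libraries. It was called in none of the 5 comparisons, and the 95% interval of its log2 change with stretch under control siRNA was -0.19 to 0.19. It was called with TPM scaling for Wnt5a siRNA under stretch (0.32, limma adjusted p = 0.0266), and with quantile normalization there (0.36, limma adjusted p = 0.027) and for stretch with control siRNA (-0.32, limma adjusted p = 0.0179). As a share of Tnni1 plus Tnni3, which a single scaling factor per library does not change, Tnni1 made up 50.8 ± 1.45% in stretched Wnt5a siRNA, 45.2 ± 8.78% in stretched control, 49.9 ± 1.21% in unstretched Wnt5a siRNA and 31.6 ± 1.36% in unstretched control libraries (SD, n = 3 each). The share was 43.3, 37.6 and 54.8% in the 3 stretched control libraries, all above the 30.2 to 33% of the unstretched controls. An exact 2-sided permutation test gave p = 0.1, the smallest that 3 against 3 libraries allow, both for stretch in control cells and for Wnt5a siRNA without stretch (0.24 when adjusted over 12 share tests). For Wnt5a siRNA under stretch the groups overlapped (exact permutation p = 0.4), and likewise for stretch with Wnt5a siRNA (exact permutation p = 0.6). The higher Tnni1 share stood beside a lower Tnni3 level in the same libraries, with no called change of Tnni1 at the deposited scaling.

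The 250 bases before the annotated start of these paired isoform genes are shown because the levels of Tnni3 and Tnni1 parted. They are from the RefSeq promoter table for GRCr8, a later build than the rn6 of the deposited values, and run 5′ to 3′ on the gene's strand, which is the plus strand for both. The bases of Tnni1 lie at chr13:49781279-49781528 and those of Tnni3 at chr1:78342321-78342570. A MEF2 site was searched as YTAWWWWTAR, with Y for C or T, W for A or T and R for A or G. Neither sequence holds a match to that pattern, a CArG box or the MCAT letters CATTCC on either strand, so no letters are in capitals. In Tnni3 the letters gtatatttag miss the MEF2 pattern only in their leading base.
Tnni1: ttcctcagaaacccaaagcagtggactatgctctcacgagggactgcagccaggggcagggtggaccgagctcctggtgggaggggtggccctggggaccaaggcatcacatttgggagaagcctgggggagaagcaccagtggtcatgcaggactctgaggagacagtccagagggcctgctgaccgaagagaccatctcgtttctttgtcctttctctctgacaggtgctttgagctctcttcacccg
Tnni3: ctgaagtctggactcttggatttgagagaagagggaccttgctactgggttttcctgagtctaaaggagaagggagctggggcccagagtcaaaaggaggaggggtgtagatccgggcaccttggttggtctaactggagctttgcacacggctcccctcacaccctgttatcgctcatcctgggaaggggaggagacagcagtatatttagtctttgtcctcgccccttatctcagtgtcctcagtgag

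Tnnt2, cardiac troponin T and with Tnnc1 the most abundant transcript of the 33, was 4014, 4608 and 3969 FPKM in stretched Wnt5a siRNA and 5604, 6263 and 4046 FPKM in stretched control libraries. Tnnt2 was 4278, 4183 and 4461 FPKM in unstretched Wnt5a siRNA and 4927, 5586 and 6329 FPKM in unstretched control libraries, and was called in no comparison. Without stretched control library 3 it was called lower with Wnt5a siRNA under stretch (-0.50, limma adjusted p = 0.00333) and without stretch (-0.38, limma adjusted p = 0.0106). With quantile normalization it was called lower with stretch under control siRNA (-0.67, limma adjusted p = 0.000794). Tnnt1, slow skeletal troponin T, stayed under 3 FPKM, at 2.67, 0.627 and 2.63 FPKM in unstretched Wnt5a siRNA against 0.375, 0.339 and 0.185 FPKM in unstretched control libraries. This was its only call (log2 change 1.10 ± 0.33 (SE), limma adjusted p = 0.0274), and it was lost when any 1 of 5 libraries was left out. Tnnc1, troponin C of slow and cardiac muscle, was 4199.8, 4594 and 3393 FPKM in stretched Wnt5a siRNA and 7736, 7546 and 5436 FPKM in stretched control libraries. Tnnc1 was 3917, 4195 and 3355 FPKM in unstretched Wnt5a siRNA and 4912, 4751 and 4923 FPKM in unstretched control libraries. The stretched control libraries were all above the other 9. Tnnc1 rose with stretch under control siRNA by 0.49 ± 0.15 (SE) on the log2 scale (limma adjusted p = 0.0151) and was lower with Wnt5a siRNA under stretch (-0.76 ± 0.15, limma adjusted p = 0.00537). The rise was not called with TPM scaling (0.26, limma adjusted p = 0.105), with quantile normalization (0.12, limma adjusted p = 0.507) or without stretched control library 1 (limma adjusted p = 0.0662).

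**Figure D1:**
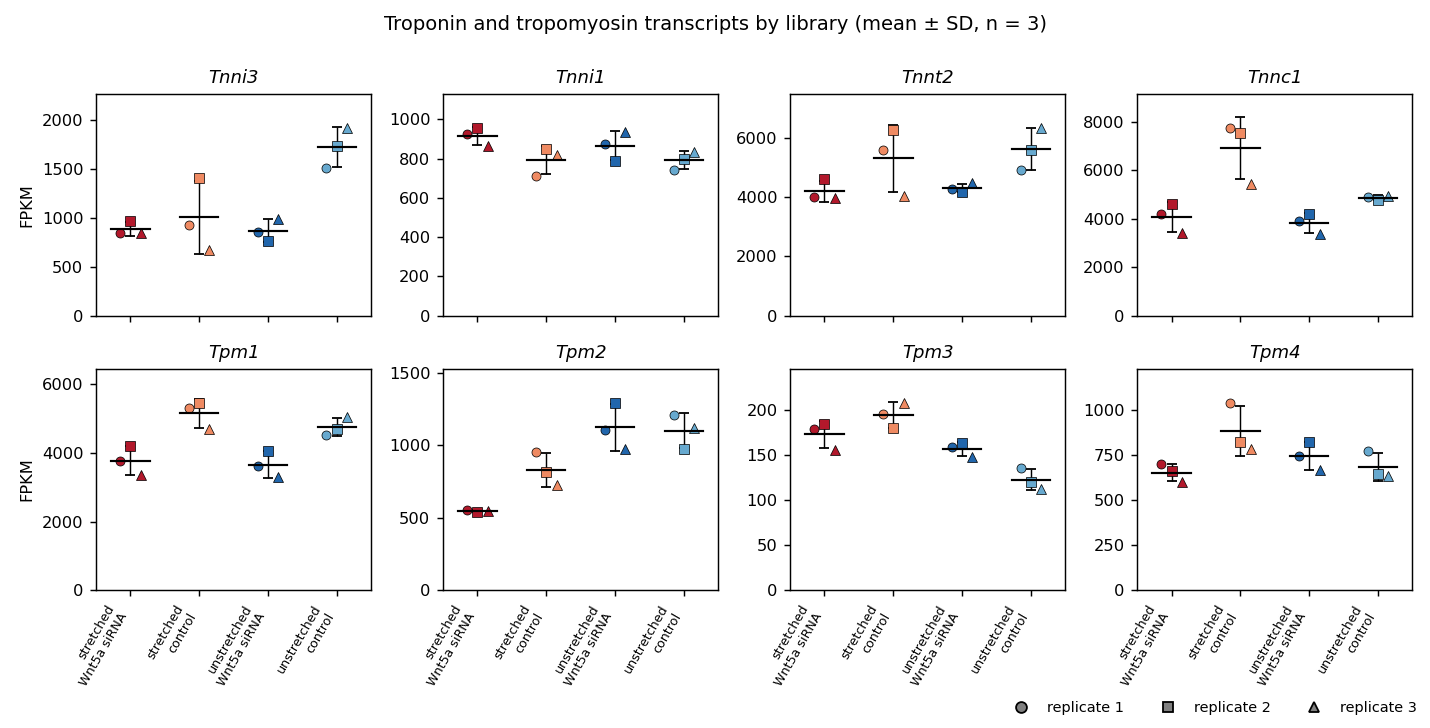
FPKM of 4 troponin and 4 tropomyosin genes in each of the 12 libraries, by group, with the mean and SD (n = 3) as bars and the replicate number as the marker shape. Tnni3 is highest in the 3 unstretched control libraries, between 1514 and 1919 FPKM, while Tpm2 is lowest in the 3 stretched Wnt5a siRNA libraries, between 540.2 and 552 FPKM.

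**Figure D2:**
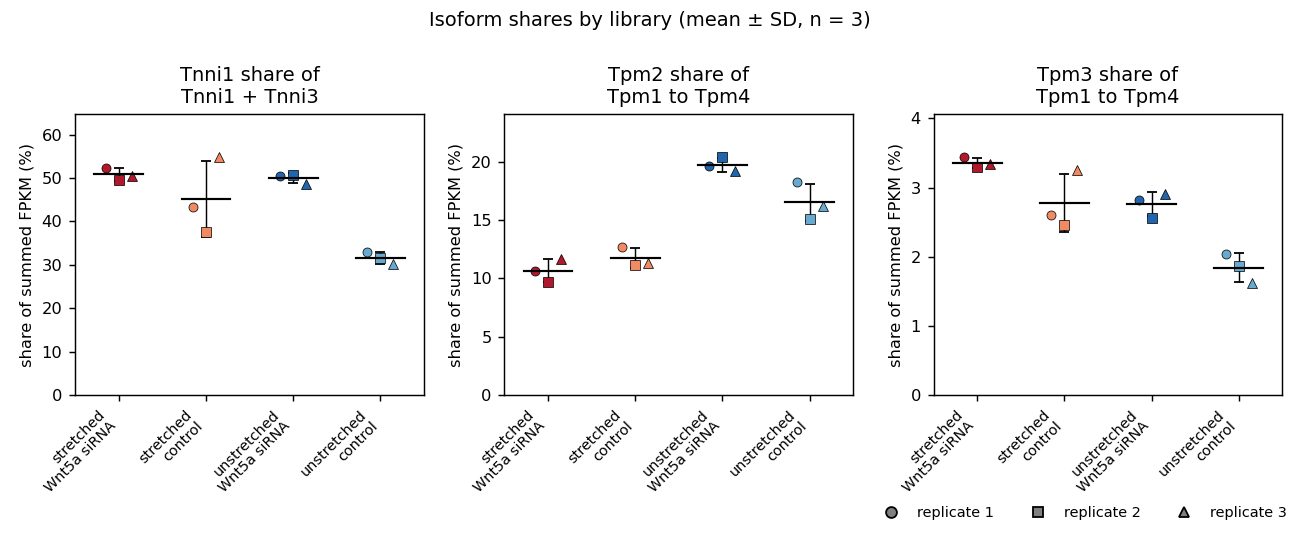
Share of summed FPKM, in percent, for Tnni1 among the troponin I genes and for Tpm2 and Tpm3 among Tpm1 to Tpm4, in each library with the group mean and SD (n = 3). The Tnni1 share is lowest in the unstretched control libraries, at 30.2 to 33%, and stretched control library 3 lies above the other two of its group.

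The 4 tropomyosin genes were called in different comparisons. Tpm1, the main tropomyosin of cardiac sarcomeres, was 3759.8, 4201 and 3366 FPKM in stretched Wnt5a siRNA and 5301, 5473 and 4689 FPKM in stretched control libraries. Tpm1 was 3617, 4071 and 3298 FPKM in unstretched Wnt5a siRNA and 4517, 4712 and 5042 FPKM in unstretched control libraries. It was lower with Wnt5a siRNA both under stretch (-0.45 ± 0.11 (SE), limma adjusted p = 0.0132) and without it (-0.38 ± 0.11, limma adjusted p = 0.0235), with no overlap of the libraries in either case, and was not called for stretch with either siRNA. The call under stretch was lost without stretched control library 1 (limma adjusted p = 0.0567) or stretched Wnt5a siRNA library 3 (limma adjusted p = 0.0647) and with quantile normalization (-0.19, limma adjusted p = 0.153). With the compared libraries alone that call was lost too (limma adjusted p = 0.0647). The call without stretch was lost when any 1 of 4 libraries was left out (limma adjusted p up to 0.0911) and with no filter on low values (limma adjusted p = 0.0691).

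Tpm2, beta-tropomyosin, found in slow skeletal and smooth muscle as well, was 552, 540.2 and 544 FPKM in stretched Wnt5a siRNA and 953, 814 and 724 FPKM in stretched control libraries. Tpm2 was 1104, 1296 and 976 FPKM in unstretched Wnt5a siRNA and 1213, 975 and 1118 FPKM in unstretched control libraries. It was lower with stretch, with a log2 change of -1.03 ± 0.12 (SE) with Wnt5a siRNA (limma adjusted p = 0.000324) and -0.41 ± 0.12 with control siRNA (limma adjusted p = 0.0116), and the difference between these changes was -0.62 ± 0.17 (limma adjusted p = 0.021). The call of that difference was lost when any 1 of 3 libraries was left out (limma adjusted p up to 0.0566) and with quantile normalization (-0.36, limma adjusted p = 0.106). Under stretch Tpm2 was lower with Wnt5a siRNA (-0.60 ± 0.12, limma adjusted p = 0.00592), with no overlap of the libraries, and this call held with each library left out in turn. Without stretch the Wnt5a siRNA changed it by 0.03 (limma adjusted p = 0.894). Its share of all tropomyosin FPKM was 10.7 ± 0.987% in stretched Wnt5a siRNA, 11.7 ± 0.864% in stretched control, 19.7 ± 0.616% in unstretched Wnt5a siRNA and 16.5 ± 1.61% in unstretched control libraries (SD, n = 3 each). Of the 10 smooth muscle and pericyte markers, 5 fell and 2 rose with stretch under Wnt5a siRNA, and 2 fell and 2 rose under control siRNA. Among all genes, 7.59% fell and 8.44% rose with stretch under Wnt5a siRNA, and 26.8% and 27.5% under control siRNA. Myh11, the smooth muscle myosin heavy chain, was 7.25, 6.31 and 8.66 FPKM in stretched Wnt5a siRNA and 15.3, 10.8 and 10.2 FPKM in stretched control libraries. Myh11 was 35.5, 46.8 and 32.4 FPKM in unstretched Wnt5a siRNA and 55.5, 38.1 and 42.6 FPKM in unstretched control libraries. These markers did not all move as Myh11 did. Cnn1, another of the 10, averaged 307 FPKM in stretched control and 98.6 FPKM in unstretched control libraries. With Wnt5a siRNA it averaged 127 FPKM with stretch and 207 FPKM without. The median log2 change of the 10 with stretch was -0.61 under Wnt5a siRNA and 0.20 under control siRNA. The summed marker level was 3277 to 3781 FPKM in stretched Wnt5a siRNA, 4229 to 7127 in stretched control, 4379 to 6482 in unstretched Wnt5a siRNA and 4614 to 5704 in unstretched control libraries, none of the 10 was at 0 throughout, and the part of these cells in the Tpm2 result was not tested.

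Tpm3, a tropomyosin of slow skeletal muscle and of non-muscle cells, was the least abundant of the 4, at 178, 184 and 156 FPKM in stretched Wnt5a siRNA and 195, 179 and 208 FPKM in stretched control libraries. Tpm3 was 159, 163 and 148 FPKM in unstretched Wnt5a siRNA and 135, 120.5 and 112 FPKM in unstretched control libraries. The unstretched controls were the lowest 3 libraries. It rose with stretch under control siRNA (0.66 ± 0.09 (SE), limma adjusted p = 5.96e-05) and with Wnt5a siRNA without stretch (0.35 ± 0.09, limma adjusted p = 0.0114), and the difference between the changes with stretch was -0.52 ± 0.12 (limma adjusted p = 0.012). Tpm4, a mainly non-muscle tropomyosin, was 654 ± 48.2 FPKM in stretched Wnt5a siRNA and 884 ± 139 FPKM in stretched control libraries. Tpm4 was 746 ± 80.3 FPKM in unstretched Wnt5a siRNA and 686 ± 76.4 FPKM in unstretched control libraries (SD, n = 3 each). It rose with stretch under control siRNA (0.36 ± 0.12, limma adjusted p = 0.0229) and was lower with Wnt5a siRNA under stretch (-0.43 ± 0.12, limma adjusted p = 0.0224), and the difference between the changes with stretch was -0.55 ± 0.17 (limma adjusted p = 0.0356). With TPM scaling its rise was 0.13 (limma adjusted p = 0.302), and without stretched control library 1 it was 0.24 (limma adjusted p = 0.106), and the rise was also lost without unstretched control library 2 or 3 and with quantile normalization (limma adjusted p = 0.487). The call of the difference was lost when any 1 of 7 libraries was left out (limma adjusted p up to 0.0911), with no filter (limma adjusted p = 0.0586) and with quantile normalization (limma adjusted p = 0.123).

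In the thick filament and M-band, stretch with control siRNA lowered Mybpc3, Myom1, Myom2 and Mylk3 and raised Mybpc2. Mybpc3, cardiac myosin-binding protein C, which regulates cross-bridges, was 324, 437 and 372 FPKM in stretched Wnt5a siRNA and 426, 482 and 326 FPKM in stretched control libraries. Mybpc3 was 523, 496 and 529.6 FPKM in unstretched Wnt5a siRNA and 527, 558 and 616 FPKM in unstretched control libraries. It fell with stretch both with Wnt5a siRNA (-0.46 ± 0.13 (SE), limma adjusted p = 0.0358) and control siRNA (-0.48 ± 0.13, limma adjusted p = 0.00924), and the difference between these changes was 0.02 with a 95% interval of -0.39 to 0.43. The call with Wnt5a siRNA was lost when any 1 of 6 libraries was left out (limma adjusted p up to 0.158) and with no filter (limma adjusted p = 0.059). Mybpc2, the fast skeletal form of the same protein, was 12.4, 14.9 and 9.51 FPKM in stretched Wnt5a siRNA and 13.4, 15.1 and 17.2 FPKM in stretched control libraries. Mybpc2 was 17.6, 18.6 and 11.4 FPKM in unstretched Wnt5a siRNA and 10.6, 7.87 and 5.78 FPKM in unstretched control libraries. It rose with stretch under control siRNA (0.87 ± 0.22, limma adjusted p = 0.00459) and with Wnt5a siRNA without stretch (0.90 ± 0.22, limma adjusted p = 0.00933), and the difference between the changes with stretch was -1.21 ± 0.30 (limma adjusted p = 0.0152).

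Myom1, myomesin 1, which cross-links thick filaments in the M-band, was 76.5, 105 and 80.4 FPKM in stretched Wnt5a siRNA and 91.8, 109.9 and 82.9 FPKM in stretched control libraries. Myom1 was 133, 132 and 123 FPKM in unstretched Wnt5a siRNA and 151, 152 and 159.7 FPKM in unstretched control libraries. All 6 stretched libraries were below all 6 unstretched ones, and the log2 change was -0.57 ± 0.12 (SE) with Wnt5a siRNA (limma adjusted p = 0.00654) and -0.71 ± 0.12 with control siRNA (limma adjusted p = 0.000295). Myom2, the myomesin of fast and adult muscle, was 44.5, 41.3 and 44.1 FPKM in stretched Wnt5a siRNA and 17.2, 41.3 and 20.5 FPKM in stretched control libraries. Myom2 was 38.1, 23.8 and 50 FPKM in unstretched Wnt5a siRNA and 47, 44.1 and 57.5 FPKM in unstretched control libraries, so its libraries spread more widely. It fell with stretch under control siRNA (-0.98 ± 0.29, limma adjusted p = 0.0117), a call lost without stretched control library 1 (-0.74, limma adjusted p = 0.0551), and the difference between the changes with stretch was 1.25 ± 0.40 (limma adjusted p = 0.0417), which was lost when any 1 of 10 libraries was left out (limma adjusted p up to 0.0976). That call also ended with the replicate block (limma adjusted p = 0.0522), with no filter (limma adjusted p = 0.0729) and with eBayes without a trend (limma adjusted p = 0.0547). Mylk3, the cardiac kinase of the regulatory myosin light chain, averaged 105 ± 1.98 FPKM in stretched Wnt5a siRNA and 111 ± 33 FPKM in stretched control libraries. Mylk3 was 127 ± 6.51 FPKM in unstretched Wnt5a siRNA and 188 ± 6.03 FPKM in unstretched control libraries (SD, n = 3 each). It was lower with stretch under control siRNA (-0.80 ± 0.15, limma adjusted p = 0.00076) and with Wnt5a siRNA without stretch (-0.57 ± 0.15, limma adjusted p = 0.0151).

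Of the 9 Z-disc genes, 7 were lower with Wnt5a siRNA under stretch, against 14.2% of all genes, and the other 2 were not called. With the compared libraries alone, the calls of Actn2 (limma adjusted p = 0.124), Mypn (0.0647) and Synpo2l (0.1) were lost. Myoz2, calsarcin 1, which links alpha-actinin to calcineurin, was 344, 378 and 294 FPKM in stretched Wnt5a siRNA and 679, 654 and 469.7 FPKM in stretched control libraries. Myoz2 was 348, 334 and 320.4 FPKM in unstretched Wnt5a siRNA and 457, 385 and 383 FPKM in unstretched control libraries. The stretched controls were above all other libraries, and the log2 change was -0.81 ± 0.13 (SE) for Wnt5a siRNA under stretch (limma adjusted p = 0.00261) and 0.54 ± 0.13 for stretch with control siRNA (limma adjusted p = 0.00437, or 0.32 with limma adjusted p = 0.0398 with TPM scaling). Pdlim5, a PDZ-LIM protein that tethers kinases at the Z-disc, was 182, 213 and 158 FPKM in stretched Wnt5a siRNA and 333, 302 and 262 FPKM in stretched control libraries. Pdlim5 was 212, 249.6 and 167 FPKM in unstretched Wnt5a siRNA and 247, 208 and 202 FPKM in unstretched control libraries. It too was highest in the 3 stretched controls, with -0.70 ± 0.15 for Wnt5a siRNA under stretch (limma adjusted p = 0.00718) and 0.44 ± 0.15 for stretch with control siRNA (limma adjusted p = 0.0235). The rise with stretch was not called with TPM scaling (0.22, limma adjusted p = 0.178) or when any 1 of 4 libraries was left out. The difference between the changes with stretch was -0.62 ± 0.21 (limma adjusted p = 0.0498), lost when any 1 of 8 libraries was left out and with TPM scaling (limma adjusted p = 0.0637).

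Synpo2, or myopodin, an actin-bundling protein of the Z-disc, was 39.8, 54.1 and 40.3 FPKM in stretched Wnt5a siRNA and 124, 119.8 and 57.6 FPKM in stretched control libraries. Synpo2 was 55.7, 61.6 and 51.5 FPKM in unstretched Wnt5a siRNA and 79.9, 75.9 and 71.2 FPKM in unstretched control libraries. Stretched control library 3 held less than the unstretched controls, while libraries 1 and 2 of that group held more than any other. The log2 change with Wnt5a siRNA under stretch was -1.08 ± 0.23 (SE, limma adjusted p = 0.00697), or -1.44 without library 3, and that with stretch under control siRNA was 0.32 ± 0.23 (limma adjusted p = 0.248), or 0.68 without library 3 (limma adjusted p = 0.000415). Its relative Synpo2l was 104, 135 and 92.1 FPKM in stretched Wnt5a siRNA and 234, 233 and 114 FPKM in stretched control libraries, again with library 3 apart, and was called lower with the siRNA under stretch (-0.75 ± 0.24, limma adjusted p = 0.0377), a call lost when any 1 of 6 libraries was left out. With the replicate number as a block, Synpo2l was also lower with stretch under Wnt5a siRNA (-0.56, limma adjusted p = 0.0328, against 0.14 without the block).

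Smpx, a small muscle protein of the costamere and Z-disc region, averaged 277 ± 28.3 FPKM in stretched Wnt5a siRNA and 418 ± 80 FPKM in stretched control libraries. Smpx was 289 ± 8.19 FPKM in unstretched Wnt5a siRNA and 375 ± 7.21 FPKM in unstretched control libraries (SD, n = 3 each), and was lower with the siRNA under stretch (-0.58 ± 0.12 (SE), limma adjusted p = 0.00646) and without it (-0.38 ± 0.12, limma adjusted p = 0.0337). The call without stretch was lost when any 1 of the 6 unstretched libraries was left out (limma adjusted p up to 0.0865), with quantile normalization (limma adjusted p = 0.0543) and with no filter (limma adjusted p = 0.054). Without stretched control library 3 it was called higher with stretch under control siRNA (0.31, limma adjusted p = 0.00422). Pdlim3, an alpha-actinin-binding PDZ-LIM protein, was 404, 401 and 213 FPKM in stretched control and 213, 189 and 183 FPKM in unstretched control libraries, and rose with stretch (0.74 ± 0.20, limma adjusted p = 0.00695), or by 1.05 without library 3. Pdlim3 was 240, 256 and 199 FPKM in stretched and 178, 184 and 157 FPKM in unstretched Wnt5a siRNA libraries. That change of 0.41 was not called, except with the compared libraries alone (limma adjusted p = 0.0175) and without stretched control library 3 (limma adjusted p = 0.00736). Mypn, or myopalladin, which ties alpha-actinin to nebulin-type proteins, was 6.95, 9.17 and 6.49 FPKM in stretched Wnt5a siRNA, 16.6, 13 and 9.16 in stretched control and 11.8, 11.1 and 11.8 in unstretched Wnt5a siRNA libraries. It was lower in stretched Wnt5a siRNA libraries than in stretched controls (-0.68 ± 0.17, limma adjusted p = 0.0121), though the libraries overlapped, and than in unstretched Wnt5a siRNA libraries (-0.57 ± 0.17, limma adjusted p = 0.0344). The call against unstretched Wnt5a siRNA libraries was lost when any 1 of 5 libraries was left out (limma adjusted p up to 0.122) and with no filter (limma adjusted p = 0.0583).

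Actn2, sarcomeric alpha-actinin, which cross-links actin in the Z-disc, was 476, 592 and 489 FPKM in stretched Wnt5a siRNA and 769, 847 and 530.3 FPKM in stretched control libraries. Actn2 was 744, 855 and 659 FPKM in unstretched Wnt5a siRNA and 908, 909 and 882 FPKM in unstretched control libraries. It was called lower with stretch under Wnt5a siRNA (-0.53 ± 0.15 (SE), limma adjusted p = 0.0329), a call lost when any 1 of 4 libraries was left out (limma adjusted p up to 0.126) and with no filter (limma adjusted p = 0.0567). It was also called lower with Wnt5a siRNA under stretch (-0.44 ± 0.15, limma adjusted p = 0.049), where the libraries overlapped and the call was lost when any 1 of 9 libraries was left out. Ldb3, a PDZ-LIM protein also called cypher or ZASP that holds the Z-disc together, was 153, 215 and 162 FPKM in stretched Wnt5a siRNA and 229, 278 and 174 FPKM in stretched control libraries. Ldb3 was 219, 232 and 193 FPKM in unstretched Wnt5a siRNA and 346, 367 and 366 FPKM in unstretched control libraries. As with Tnni3, the 3 unstretched controls were above the other 9, and Ldb3 was lower with stretch under control siRNA (-0.69 ± 0.15, limma adjusted p = 0.00253) and with Wnt5a siRNA without stretch (-0.74 ± 0.15, limma adjusted p = 0.00486).

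Myoz2 and Ldb3 are shown as the Z-disc genes that went opposite ways with stretch under control siRNA. Both lie on the minus strand of GRCr8, Myoz2 with its 250 upstream bases at chr2:213852779-213853028 and Ldb3 at chr16:9924680-9924929, printed 5′ to 3′ along the gene. Capitals mark a MEF2 site that begins 53 bases before the start of Myoz2 and a CArG box, the letters bound by serum response factor, that begins 52 bases before the start of Ldb3.
Myoz2: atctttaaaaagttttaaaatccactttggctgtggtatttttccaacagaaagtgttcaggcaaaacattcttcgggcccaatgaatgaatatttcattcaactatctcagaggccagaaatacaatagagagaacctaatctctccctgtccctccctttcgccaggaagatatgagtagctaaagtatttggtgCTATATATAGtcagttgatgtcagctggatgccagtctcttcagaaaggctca
Ldb3: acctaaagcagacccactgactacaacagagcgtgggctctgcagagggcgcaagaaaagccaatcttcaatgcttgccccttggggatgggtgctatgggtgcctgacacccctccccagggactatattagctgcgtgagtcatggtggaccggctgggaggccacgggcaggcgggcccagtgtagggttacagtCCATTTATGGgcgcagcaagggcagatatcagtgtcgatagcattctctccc

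Among the 34 of the 40 genes with an entry in the RefSeq table (Tnnc1, Myom2, Myot, Pdlim3, Cryab2 and Trim55 have none), 8 held a MEF2 site in these 250 bases on either strand, or 23.5%, against 3.32% of 27457 genes. A CArG box was in 1 of 34, or 2.94%, against 1.62% of all, the MCAT letters CATTCC in 7, or 20.6%, against 12.9%, and an E-box, CANNTG, in 29, or 85.3%, against 67% of all. The MEF2 genes were Ttn, Mybpc3, Myom3, Myoz1, Myoz2, Smpx, Synpo2l and Klhl41, of which Mybpc3 and Klhl41 fell and Myoz2 rose with stretch under control siRNA. These are matches of letters and not binding.

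**Figure D3:**
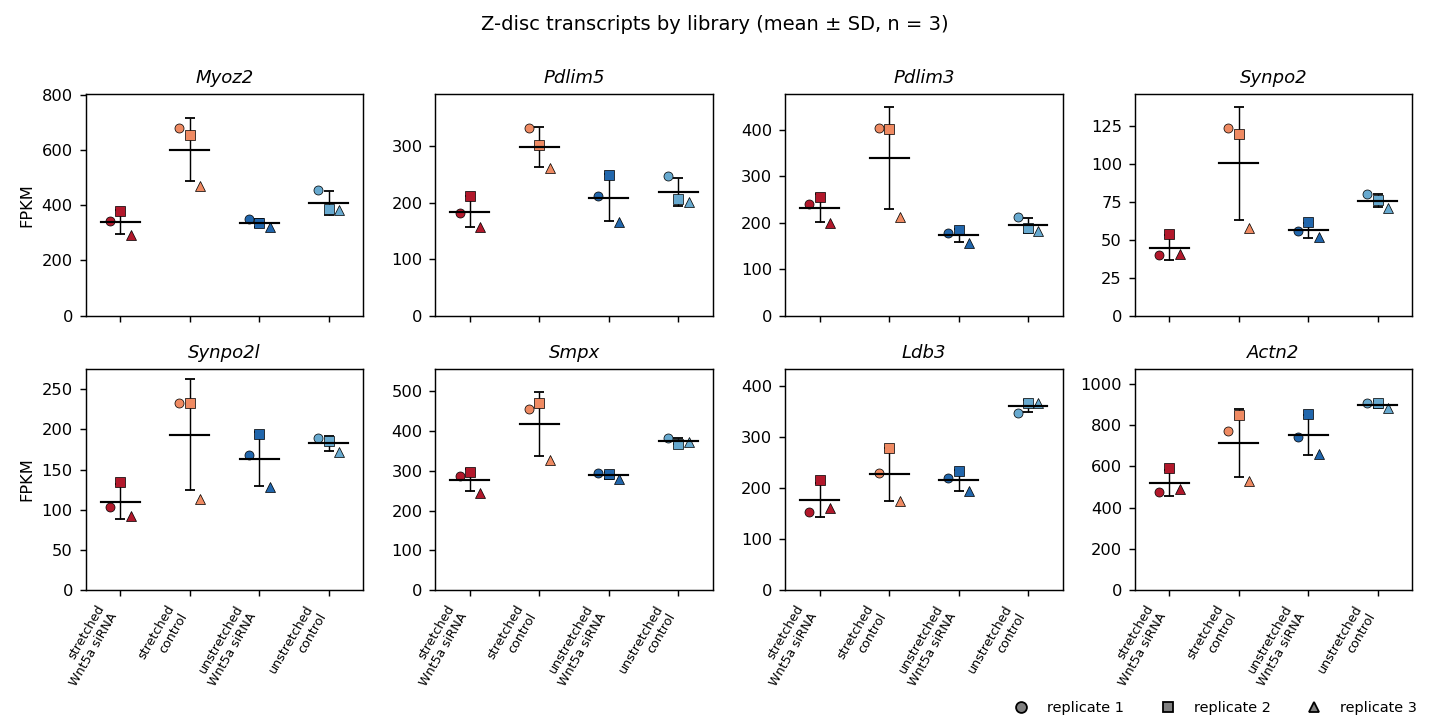
FPKM of 8 Z-disc genes in each library, by group, with the mean and SD (n = 3) and the replicate number as the marker shape. In the panels of Pdlim3, Synpo2 and Synpo2l, stretched control library 3 lies well below the other two of its group, and in that of Ldb3 the 3 unstretched controls lie above the other 9 libraries.

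The genes of the thin filament ends were lower with stretch under control siRNA in all 3 cases, where 26.8% of all genes were called lower. Tmod1, tropomodulin 1, which caps the pointed end of the actin filament, was 60.4, 72.2 and 64.7 FPKM in stretched Wnt5a siRNA and 79.7, 78.3 and 65.3 FPKM in stretched control libraries. Tmod1 was 91.7, 82.2 and 82.9 FPKM in unstretched Wnt5a siRNA and 118, 117 and 115 FPKM in unstretched control libraries. The 6 stretched libraries were below the 6 unstretched ones, with -0.38 ± 0.09 (SE) for stretch with Wnt5a siRNA (limma adjusted p = 0.0117), -0.65 ± 0.09 for stretch with control siRNA (limma adjusted p = 6.13e-05) and -0.45 ± 0.09 for Wnt5a siRNA without stretch (limma adjusted p = 0.00334). Cap2, an actin-binding protein of cyclase-associated type, was 116, 125 and 125 FPKM in stretched Wnt5a siRNA and 87.6, 111 and 88.7 FPKM in stretched control libraries. Cap2 was 128, 127 and 142 FPKM in unstretched Wnt5a siRNA and 149, 162 and 177 FPKM in unstretched control libraries. It fell with stretch under control siRNA (-0.76 ± 0.09, limma adjusted p = 3.33e-05) and was higher with Wnt5a siRNA under stretch (0.35 ± 0.09, limma adjusted p = 0.0172) but lower with it without stretch (-0.29 ± 0.09, limma adjusted p = 0.0337), and the difference between the changes with stretch was 0.65 ± 0.13 (limma adjusted p = 0.00597). The call without stretch was lost when any 1 of 4 libraries was left out (limma adjusted p up to 0.139) and with eBayes without a trend (limma adjusted p = 0.0503). Capzb, the beta subunit of the barbed-end capping protein, changed least among the genes called for stretch with control siRNA, at 178 ± 12.2 FPKM in stretched control and 204 ± 9.56 FPKM in unstretched control libraries (SD, n = 3 each, log2 change -0.20 ± 0.06, limma adjusted p = 0.0171). Its call was lost without unstretched control library 2 (limma adjusted p = 0.0679) or 3 (limma adjusted p = 0.0593) and with the compared libraries alone (limma adjusted p = 0.0771).

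The 6 genes of assembly and turnover all fell with stretch under control siRNA, where 26.8% of all genes were called lower. Smyd1, a muscle methyltransferase and chaperone of myosin assembly, was 66, 88.2 and 85.2 FPKM in stretched Wnt5a siRNA and 51, 61.4 and 52.6 FPKM in stretched control libraries. Smyd1 was 111, 102 and 117 FPKM in unstretched Wnt5a siRNA and 126, 131 and 149 FPKM in unstretched control libraries. The 4 groups did not overlap, and the log2 change with stretch was -0.47 ± 0.11 (SE) with Wnt5a siRNA (limma adjusted p = 0.0149) and -1.28 ± 0.11 with control siRNA (limma adjusted p = 4.13e-06). The difference between these was 0.81 ± 0.16 (limma adjusted p = 0.00495), and under stretch Smyd1 was higher with Wnt5a siRNA (0.52 ± 0.11, limma adjusted p = 0.00741). Unc45b, another chaperone of myosin, was 70.6 ± 8.8 FPKM in stretched Wnt5a siRNA and 98.5 ± 33.7 FPKM in stretched control libraries. Unc45b was 88.4 ± 1.6 FPKM in unstretched Wnt5a siRNA and 147 ± 8.81 FPKM in unstretched control libraries (SD, n = 3 each). It was lower with stretch under control siRNA (-0.63 ± 0.20, limma adjusted p = 0.0172, or -0.32 without stretched control library 3) and with Wnt5a siRNA without stretch (-0.72 ± 0.20, limma adjusted p = 0.018).

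Klhl41, a Kelch protein that stabilizes thin filament proteins in skeletal muscle, was 19.6, 22.8 and 18.3 FPKM in stretched Wnt5a siRNA and 39.6, 41.8 and 43.1 FPKM in stretched control libraries. Klhl41 was 26.6, 28.1 and 26.5 FPKM in unstretched Wnt5a siRNA and 57.3, 56.3 and 56.9 FPKM in unstretched control libraries. The 4 groups did not overlap, in the order stretched Wnt5a siRNA, unstretched Wnt5a siRNA, stretched control and unstretched control from low to high. The log2 change with Wnt5a siRNA was -1.01 ± 0.08 (SE) under stretch (limma adjusted p = 5.99e-05) and -1.04 ± 0.08 without stretch (limma adjusted p = 1.58e-05). The log2 change with stretch was -0.41 ± 0.08 with Wnt5a siRNA (limma adjusted p = 0.00425) and -0.45 ± 0.08 with control siRNA (limma adjusted p = 0.000389). The difference between the changes with stretch was 0.04, with a 95% interval of -0.20 to 0.27 (limma adjusted p = 0.836). Klhl41 was the only one of the 33 genes called in all 4 comparisons of 2 groups.

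The 3 muscle RING-finger ubiquitin ligases were Trim54 (MuRF3), Trim55 (MuRF2) and Trim63 (MuRF1). Trim63 was 58, 62.8 and 64.4 FPKM in stretched Wnt5a siRNA, 74.6, 85.9 and 48.5 in stretched control, 91.1, 70.8 and 97.5 in unstretched Wnt5a siRNA and 111, 117 and 124 in unstretched control libraries. Trim54 was 51.7, 59.7 and 65.5 FPKM in stretched Wnt5a siRNA, 93.2, 106 and 49.8 in stretched control, 78.1, 75.5 and 94.3 in unstretched Wnt5a siRNA and 140.3, 143 and 155 in unstretched control libraries. Trim55 was 137, 165 and 143 FPKM in stretched Wnt5a siRNA, 197, 214 and 149 in stretched control, 181, 185 and 158 in unstretched Wnt5a siRNA and 243, 240.1 and 259.96 in unstretched control libraries. In each case the unstretched controls were the highest 3 libraries and stretched control library 3 the lowest of its group. With stretch under control siRNA the log2 changes were -0.78 ± 0.17 (SE) for Trim63 (limma adjusted p = 0.00203), -0.88 ± 0.21 for Trim54 (limma adjusted p = 0.00386) and -0.42 ± 0.12 for Trim55 (limma adjusted p = 0.00944), and without stretched control library 3 they were -0.54, -0.55 and -0.27. Wnt5a siRNA without stretch lowered Trim54 (-0.82 ± 0.21, limma adjusted p = 0.0134) and Trim55 (-0.50 ± 0.12, limma adjusted p = 0.00878), while Trim63 changed by -0.45 (limma adjusted p = 0.0673).

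Klhl41 and Trim63 are shown as genes that fell with stretch and differ in the letters before their start. Both are on the plus strand of GRCr8, Klhl41 with its 250 upstream bases at chr3:74841868-74842117 and Trim63 at chr5:151816986-151817235. Capitals mark a MEF2 site that begins 142 bases before the start of Klhl41 and, for Trim63, the MCAT letters on the opposite strand, which begin 91 bases before the start. In Trim63 the letters ctataaatat miss the MEF2 pattern only in their last base.
Klhl41: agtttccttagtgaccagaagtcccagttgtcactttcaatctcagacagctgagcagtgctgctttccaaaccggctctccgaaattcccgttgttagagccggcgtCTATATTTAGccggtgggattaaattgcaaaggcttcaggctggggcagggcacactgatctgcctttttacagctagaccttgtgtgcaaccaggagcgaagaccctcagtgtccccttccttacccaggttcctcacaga
Trim63: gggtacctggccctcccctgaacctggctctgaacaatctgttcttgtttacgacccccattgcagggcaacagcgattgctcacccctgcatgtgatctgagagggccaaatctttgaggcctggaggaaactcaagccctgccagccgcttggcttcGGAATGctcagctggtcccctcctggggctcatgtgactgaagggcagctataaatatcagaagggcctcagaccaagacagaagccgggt

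**Figure D4:**
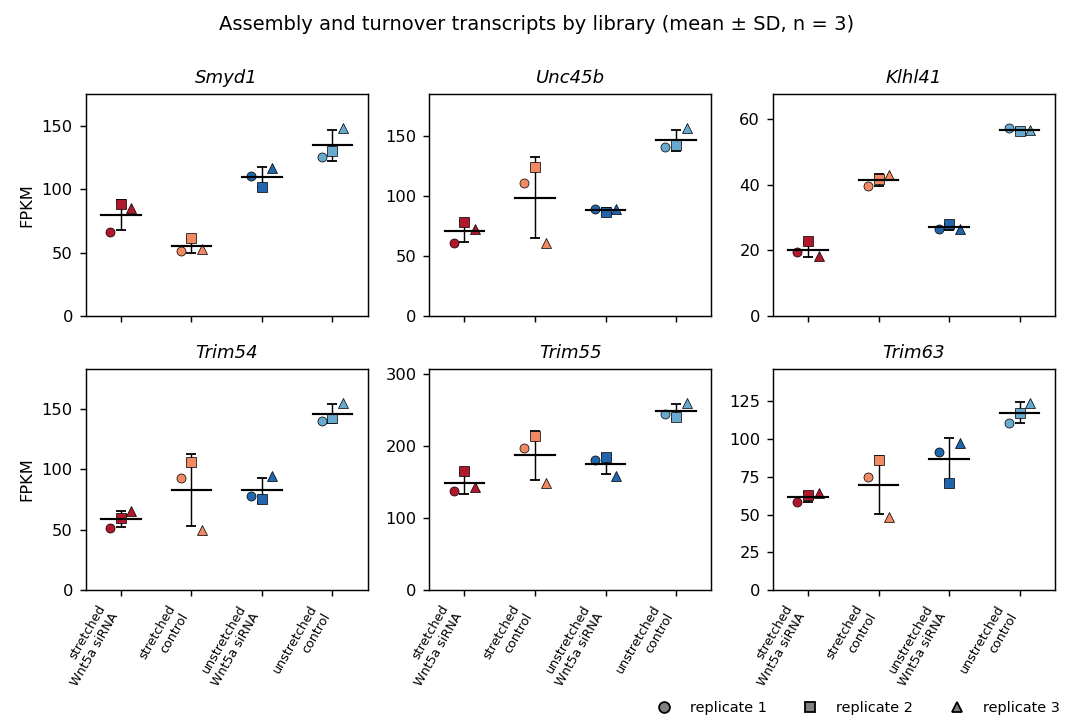
FPKM of 6 genes of sarcomere assembly and turnover in each library, by group, with the mean and SD (n = 3). Klhl41 separates all 4 groups, and the unstretched control libraries are highest in each panel.

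Myh14, a non-muscle myosin heavy chain on the list, was 10.7, 10.3 and 11.2 FPKM in stretched Wnt5a siRNA and 9.04, 12.5 and 4.88 FPKM in stretched control libraries. Myh14 was 20.4, 18.2 and 23.6 FPKM in unstretched Wnt5a siRNA and 24.7, 24 and 26.3 FPKM in unstretched control libraries, below the unstretched libraries in all 6 stretched ones. The log2 change with stretch was -0.88 ± 0.22 (SE) with Wnt5a siRNA (limma adjusted p = 0.017) and -1.49 ± 0.22 with control siRNA (limma adjusted p = 0.000122), the largest change of the 33 genes in that comparison. The call with Wnt5a siRNA was lost when any 1 of 4 libraries was left out (limma adjusted p up to 0.0644).

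**Figure D5:**
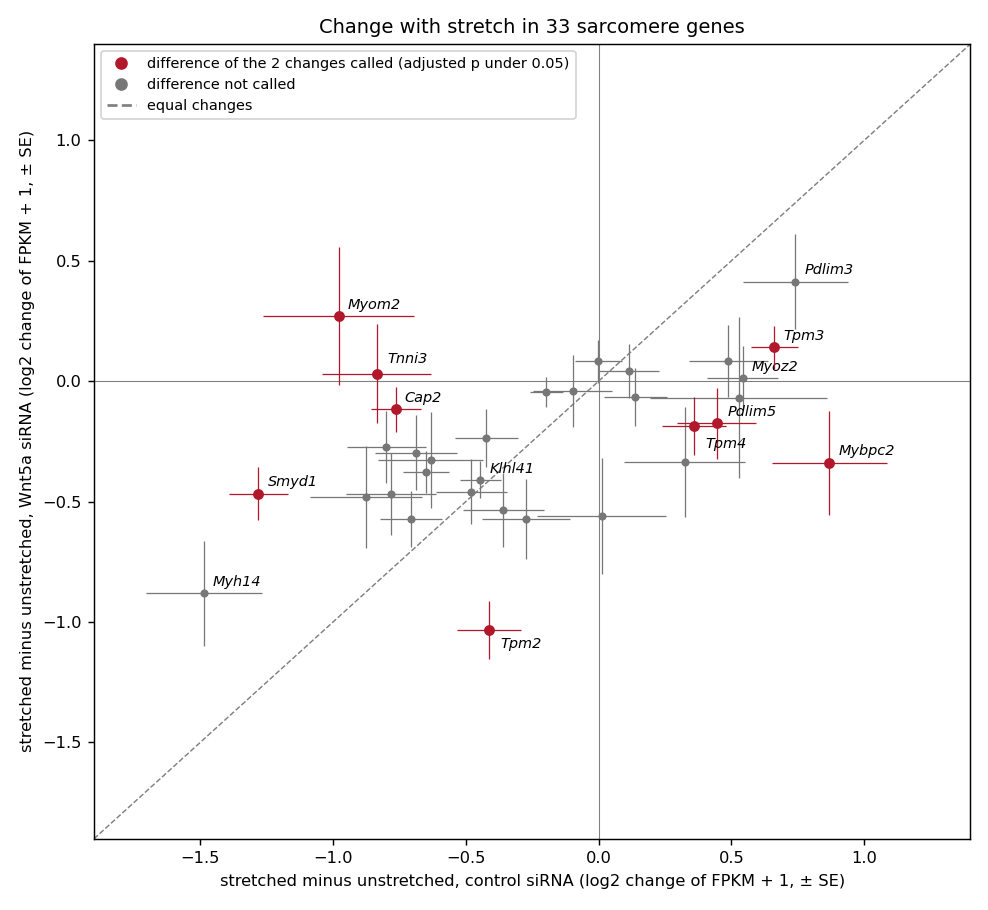
Log2 change with stretch with control siRNA on the horizontal axis and with Wnt5a siRNA on the vertical axis for the 33 genes, each with its SE, and the line of equal changes. The 2 axes share no library, and the 9 genes whose changes differed by the test of the difference are marked, with Tnni3 at -0.84 and 0.03 and Tpm2 at -0.41 and -1.03.

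Other sarcomere genes, from lists written for this purpose with results of these data known, moved in both directions. Over all genes, 27.5% were called higher and 26.8% lower with stretch under control siRNA. Of 9 tested genes of the thick filament and actin, 3 rose and 3 fell in that comparison. Myh6, the fast cardiac myosin heavy chain, was 1823, 2242 and 798 FPKM in stretched control and 3439, 3631 and 3985 FPKM in unstretched control libraries (-1.31 ± 0.28 (SE), limma adjusted p = 0.00171), while Actc1, cardiac alpha-actin, was 18338, 18628 and 13569 FPKM in stretched control and 8289, 8321 and 8407 FPKM in unstretched control libraries (limma adjusted p = 0.0024). Myl4, an atrial and fetal myosin light chain, was 239, 225 and 231 FPKM in unstretched Wnt5a siRNA and 55, 62.7 and 60.8 FPKM in unstretched control libraries (1.94 ± 0.12, limma adjusted p = 4.72e-06). Of 12 genes of other sarcomere isoforms and thin filament ends, 3 rose and 5 fell with stretch under control siRNA, among them Fhod3, a formin of the thin filament (-1.97 ± 0.17, limma adjusted p = 4.13e-06), and Nebl, the cardiac nebulin relative nebulette (-1.65 ± 0.25, limma adjusted p = 0.000139).

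Of 16 other tested genes of the Z-disc, M-band and titin partners, 10 rose and 3 fell with stretch under control siRNA, and 1 was higher and 12 were lower with Wnt5a siRNA under stretch. Over all genes these shares were 27.5% higher and 26.8% lower for the former, and 13.2% and 14.2% for the latter. Csrp3, the muscle LIM protein, was 2867, 2571 and 2275 FPKM in stretched control and 888, 719 and 596 FPKM in unstretched control libraries (1.82 ± 0.21 (SE), limma adjusted p = 2.2e-05). Des, the intermediate filament protein desmin that ties Z-discs together, was 494, 711 and 482 FPKM in stretched Wnt5a siRNA and 1578, 1088 and 1203 FPKM in stretched control libraries (-1.20 ± 0.16, limma adjusted p = 0.0016). Fbxo32, the ubiquitin ligase subunit atrogin 1, fell with stretch under control siRNA (-1.79 ± 0.21, limma adjusted p = 2.48e-05), as the 3 MuRF genes did. Of 12 transcription factors and cofactors of sarcomere genes, 6 fell with stretch under control siRNA, and 5 were lower with Wnt5a siRNA without stretch, and the others were not called. Among all genes 26.8% and 13.9% were called lower in these comparisons.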

How the data were processed

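Messenger RNA of 12 libraries was measured. RNA was extracted with miRNeasy and libraries made with a stranded TruSeq kit, per the labels' protocols, and TopHat2 2.1.1, Bowtie2, Cuffdiff 2.2.1 and build rn6 are named per the submitters' processing notes. The deposited values are the authors' FPKM per gene symbol. The annotation, scaling and strand setting are not given in the sources here. FPKM hold no counts, so depth is unknown, and genes sharing reads with paralogs are uncertain. Median ratio factors of 1.0001 to 1.0061 show that between-library scaling is already in the values.

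Values were taken as log2(FPKM + 1), which understates changes of low genes. The 10518 genes with at least 1 FPKM in at least 3 libraries were fitted as 4 group means over all 12 libraries with limma 3.58.1 (eBayes with a trend, 8 residual degrees of freedom) in R 4.3.3, 2-sided, with Benjamini-Hochberg adjustment per comparison. Of low genes, 1475 of 1523 (96.8%) were in whole-number ratios (tolerance 0.03), and 1 fragment was worth up to 1.21 times more in one library than another, but FPKM were kept and no count test was run. Isoform shares were compared by exact permutation with Python 3.11.15, pandas 2.3.3 and numpy 2.4.6. To check the code, the fit was run on simulated libraries with few changed genes, all upward, and no library that stood apart. That run does not show how the fit does where many genes are called or a library stands apart, as here.

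The 40 genes, the other lists (thick filament and actin, other isoforms and thin filament ends, Z-disc, M-band and titin partners, regulators, and markers of 6 cell types) and the naming rule were chosen with earlier results of these data known. The rule names isoform sets, Actn2 and Ldb3 in every library, then up to 15 other called genes of the set for stretch with control siRNA and up to 8 elsewhere, and from each list up to 4 and 2 called genes. Some means stand in for single libraries, and fewer list genes are printed. Synpo2l, which the rule does not take, was named after its values were seen.

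Alternatives were a pseudocount of 0.1, no filter, a filter at FPKM 5, TPM, median ratio and quantile scaling, a replicate block, eBayes without a trend, the compared libraries alone, and leaving out each library. Same-numbered stretched and unstretched Wnt5a siRNA libraries deviated together (r of 0.143 to 0.242 over 3 pairs), so the numbers may pair there, which the labels do not say. These r are small, and a single pair reached 0.249 for stretch with control siRNA, where the numbers did not all match. Pairing is therefore not established. In the other comparisons at least 1 pair had r under 0.1.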

Additional observations from a re-analysis of the deposited data

Results flagged for a closer look

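The change with stretch differed between Wnt5a siRNA and control siRNA for 9 of the 33 sarcomere genes by the test of the difference (limma, adjusted p under 0.05 over 10518 genes), beside 23.8% of all genes. That count is near the share of all genes, so it does not set these genes apart. The median difference was 0.04 for the 33 genes and 0.00 for all. The difference on the log2 scale, the change with Wnt5a siRNA minus that with control siRNA, was above 0 for Myom2 (1.25), Tnni3 (0.87), Smyd1 (0.81) and Cap2 (0.65). For these the change with stretch was 0.27 with Wnt5a siRNA and -0.98 with control siRNA for Myom2, 0.03 and -0.84 for Tnni3, -0.47 and -1.28 for Smyd1, and -0.12 and -0.76 for Cap2. It was below 0 for Mybpc2 (-1.21), Tpm2 (-0.62), Pdlim5 (-0.62), Tpm4 (-0.55) and Tpm3 (-0.52), with -0.34 and 0.87 for Mybpc2, -1.03 and -0.41 for Tpm2, -0.18 and 0.44 for Pdlim5, -0.19 and 0.36 for Tpm4, and 0.14 and 0.66 for Tpm3. Without some single library the calls of 5 of the 9 were lost, which were Myom2, Tnni3, Tpm2, Pdlim5 and Tpm4, while those of Smyd1, Cap2, Mybpc2 and Tpm3 held without any one library.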

How the results depend on the processing

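No called gene of the 33 changed direction under any alternative. Counts of higher and lower genes moved by over 1.5 times as follows. For stretch with control siRNA, 7 higher became 4 with TPM scaling and 4 with quantile normalization. For Wnt5a siRNA under stretch, 2 higher and 12 lower became 4 higher with TPM scaling, 4 higher with quantile normalization, and 1 higher and 7 lower with the compared libraries alone. With those alone, Wnt5a siRNA without stretch gave 20 lower in place of 11, and stretch with Wnt5a siRNA gave 1 higher and 14 lower in place of 0 and 9. For the difference between the changes with stretch, 4 upward and 5 downward became 2 and 3 without a filter, 7 upward with TPM scaling, 7 and 3 with quantile normalization, 2 upward with the replicate block and 2 upward with eBayes without a trend. TPM scaling moved the median of all genes to -0.19 for stretch with control siRNA, -0.12 for stretch with Wnt5a siRNA and 0.10 for Wnt5a siRNA under stretch. Over all genes it gave 1451 higher and 4493 lower in place of 2889 and 2822, 502 and 1776 in place of 888 and 798, and 2187 and 811 in place of 1386 and 1489, and 1612 and 815 in place of 1226 and 1277 for the difference. With the compared libraries alone, Wnt5a siRNA under stretch called 580 higher and 628 lower genes. Beside the calls of Actn2, Mypn and Synpo2l, this ended those of Tpm1 (limma adjusted p = 0.0647), Tpm4 (0.0603) and Cap2 (0.0578). Leaving out 1 library gave 4 to 9 higher and 15 to 18 lower for stretch in control cells, 1 to 4 and 7 to 20 for Wnt5a siRNA under stretch, 1 to 3 and 5 to 18 for Wnt5a siRNA without stretch, 0 to 1 and 3 to 16 for stretch with Wnt5a siRNA, and 2 to 6 and 2 to 12 for the difference. Calls that no single library ended were 17 of 24, 8 of 14, 6 of 14, 3 of 9 and 4 of 9 in that order of comparisons. For stretch in control cells Tpm2 was lost without unstretched control library 1 (limma adjusted p = 0.0515) and Unc45b without library 3 (0.057). For Wnt5a siRNA without stretch, Tpm3 (0.0557), Mylk3 (0.0542), Trim54 (0.0509) and Unc45b (0.0651) were lost without unstretched control library 3. For Wnt5a siRNA under stretch, Mypn (0.0541), Cap2 (0.079) and Tpm4 (0.101) were lost without stretched control library 1. For stretch with Wnt5a siRNA, Tmod1 (0.0617) and Smyd1 (0.0623) were lost without stretched Wnt5a siRNA library 1. Of these calls, those of Mypn, Cap2 and Tpm4 also ended without stretched Wnt5a siRNA library 3, and those of Mylk3, Trim54 and Unc45b for Wnt5a siRNA without stretch also ended without unstretched Wnt5a siRNA library 2, Unc45b without library 1 too. Those of Tmod1 and Smyd1 also ended without unstretched Wnt5a siRNA library 1, and Smyd1 without library 3 too. The replicate block gave 7 higher and 18 lower for stretch in control cells, 2 and 15 for Wnt5a siRNA under stretch, 3 and 13 without stretch, and 0 and 10 for stretch with Wnt5a siRNA, where it added Synpo2l and changed no other call. The cause of these moves was not tested. FPKM give no depth, so low genes such as Tnnt1 and Mypn rest on an unknown number of fragments.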

Other observations

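Regulators of sarcomere genes moved in these libraries as well. Tbx5, a T-box factor of the heart, was 8.46, 8.33 and 9.33 FPKM in stretched Wnt5a siRNA, 7.6, 7.31 and 6.48 in stretched control, 12.8, 13.3 and 15.5 in unstretched Wnt5a siRNA and 18.9, 20.3 and 20.6 in unstretched control libraries, with no overlap between the unstretched groups or with the stretched ones. Its log2 change with stretch was -0.61 ± 0.09 (SE) with Wnt5a siRNA (limma adjusted p = 0.00123) and -1.36 ± 0.09 with control siRNA (limma adjusted p = 1.29e-06), and the difference between these was 0.75 ± 0.13 (limma adjusted p = 0.00295). Mef2d, one of the factors that bind the MEF2 site, changed with stretch by -0.51 ± 0.07 with Wnt5a siRNA (limma adjusted p = 0.00108) and -0.55 ± 0.07 with control siRNA (limma adjusted p = 7.04e-05), and Vgll4, a cofactor that competes at TEAD proteins, by -0.17 with Wnt5a siRNA (limma adjusted p = 0.179) and -0.69 with control siRNA (limma adjusted p = 2.44e-05). Tbx20, another T-box factor, was higher with Wnt5a siRNA under stretch (0.49 ± 0.08, limma adjusted p = 0.00276).

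Myh7, the slow cardiac myosin heavy chain, was 1009, 1292 and 958 FPKM in stretched Wnt5a siRNA, 1008, 1014 and 1072 in stretched control, 1729, 1966 and 1446 in unstretched Wnt5a siRNA and 846, 732 and 676 in unstretched control libraries. It was highest in the unstretched Wnt5a siRNA group, and its change with stretch was lower with Wnt5a siRNA by a log2 difference of -1.12 ± 0.19 (limma adjusted p = 0.00257).

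The summed level of 8 macrophage markers was 285 to 325 FPKM in stretched Wnt5a siRNA, 248.6 to 410.1 in stretched control, 115.5 to 123.1 in unstretched Wnt5a siRNA and 124.1 to 162.4 in unstretched control libraries. That of 8 endothelial markers was 42.0 to 71.2, 21.7 to 32.7, 10.5 to 27.4 and 13.9 to 27.9 FPKM in the stretched Wnt5a siRNA, stretched control, unstretched Wnt5a siRNA and unstretched control libraries. Of 9 skeletal muscle markers, Myog and Pax7 were at 0 in every library, and the sum was 159.3 to 205.4 FPKM in stretched Wnt5a siRNA, 114 to 293.8 in stretched control, 226.4 to 305.8 in unstretched Wnt5a siRNA and 530.6 to 651.1 in unstretched control libraries. Nearly all of this sum was Ckm, which averaged 182, 204, 261 and 592 FPKM in these groups in the same order. None of the other listed markers exceeded the 3.53 FPKM of Tnnt3 in stretched Wnt5a siRNA library 2.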
